A study of Mus musculus with 8 samples.

Results

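The high mobility group (HMG) genes were followed here through 8 mouse leukaemia libraries, with 7 members taken by symbol from the 18860 genes of the deposited tables: Hmgb1, Hmgb2, Hmgb3, Hmgn1, Hmgn2, Hmga1 and Hmga2. Hmgb2 was selected on its own level, being the member with higher values in the 11B3-deleted libraries, so the genotype values of the members are a description, and the calls of each tool are only counted beside the share of all genes, with nothing read from them. The cells, acute myeloid cells by their labels, were bone marrow leukaemias of C57BL/6 mice taken when moribund. Every leukaemia carried Vav1-Cre, a recombinase driven in blood cells, and the short hairpins shNf1 and shMll3, against a brake on Ras signalling and against a histone methyltransferase. The 11B3-deleted group (11B3fl/p53fl, n = 4 libraries) had lost the 11B3 segment of chromosome 11, which contains Trp53, from 1 chromosome and carried a floxed Trp53 allele on the other. The p53-loss-only group (p53fl/fl, n = 4 libraries) had floxed alleles of Trp53 on both chromosomes and kept the rest of the segment. No age is used here. The labels speak of lines without saying that each came from a separate mouse, so a p-value refers to these libraries and may not extend to separate mice.

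HMG proteins are small, abundant chromatin proteins that bind DNA or nucleosomes without reading a long sequence motif. HMGB proteins carry paired HMG boxes that bend DNA, HMGN proteins bind the nucleosome core and loosen compact chromatin, and HMGA proteins grip the minor groove of AT-rich DNA with AT-hooks and help to assemble enhancer complexes. In blood, HMGB2 and HMGB3 are known for high levels in dividing progenitor cells, HMGB1 is nearly ubiquitous and acts as an alarm signal when released from cells, and HMGA2 is a fetal-stage gene held down by let-7 microRNAs.

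Promoters are shown because the question put to Hmgb2 was its tie to Mki67, the gene of the proliferation antigen Ki-67, and Top2a, the gene of a topoisomerase that untangles chromosomes in dividing cells. The 250 bases before the RefSeq start site are given 5′ to 3′ in the sense of the gene, with capitals for a CCAAT box (CCAAT, the core bound by NF-Y) and for a CHR element (TTTGAA, the cell cycle genes homology region), either strand counted. The 2 motifs share no position in these windows. Positions are in GRCm38.p6, at chr8:57511593-57511842 (plus strand) for Hmgb2, chrX:71555667-71555916 (plus) for Hmgb3, chr5:149053058-149053307 (minus) for start site 1 of Hmgb1, chr7:135716380-135716629 (minus) for Mki67 and chr11:99024190-99024439 (minus) for Top2a. The sequences are as follows.
Hmgb2: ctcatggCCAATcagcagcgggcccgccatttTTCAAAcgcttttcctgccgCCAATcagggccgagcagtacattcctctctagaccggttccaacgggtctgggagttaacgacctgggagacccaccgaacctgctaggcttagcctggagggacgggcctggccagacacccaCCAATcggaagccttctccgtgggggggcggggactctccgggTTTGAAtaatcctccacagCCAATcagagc
Hmgb3: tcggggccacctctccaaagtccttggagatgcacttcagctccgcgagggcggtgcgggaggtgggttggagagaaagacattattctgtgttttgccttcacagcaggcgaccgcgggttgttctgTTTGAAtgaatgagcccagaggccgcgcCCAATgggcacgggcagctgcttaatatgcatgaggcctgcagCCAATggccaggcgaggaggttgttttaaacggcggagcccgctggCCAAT
Hmgb1: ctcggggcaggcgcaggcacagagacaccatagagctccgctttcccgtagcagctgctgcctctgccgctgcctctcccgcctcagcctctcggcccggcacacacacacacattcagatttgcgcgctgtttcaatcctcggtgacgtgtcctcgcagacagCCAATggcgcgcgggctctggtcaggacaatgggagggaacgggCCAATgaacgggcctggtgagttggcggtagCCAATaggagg
Mki67: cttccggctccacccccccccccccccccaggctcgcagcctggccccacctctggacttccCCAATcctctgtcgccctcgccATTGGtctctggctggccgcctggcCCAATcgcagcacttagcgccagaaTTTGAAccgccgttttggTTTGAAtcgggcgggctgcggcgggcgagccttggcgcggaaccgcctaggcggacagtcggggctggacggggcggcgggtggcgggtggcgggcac
Top2a: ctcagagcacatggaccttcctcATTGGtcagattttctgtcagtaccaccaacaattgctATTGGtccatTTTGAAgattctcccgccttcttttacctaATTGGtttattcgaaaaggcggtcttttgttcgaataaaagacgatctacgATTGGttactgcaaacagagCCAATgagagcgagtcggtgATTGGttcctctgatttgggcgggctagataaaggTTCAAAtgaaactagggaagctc

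Hmgb2 had 4 CCAAT boxes and 2 CHR elements in this window, Hmgb3 had 3 and 1, and Hmgb1 had 3 CCAAT boxes with no CHR element at start site 1 and neither motif at start site 2. Mki67 had 3 CCAAT boxes and 2 CHR elements, and Top2a had 6 and 2. Hmgn1 had 2 CCAAT boxes and no CHR element, while Hmgn2, Hmga2 and both start sites of Hmga1 had neither. Among 32851 promoters of the same length, 33.8% had a CCAAT box and 16.0% a CHR element, and 10.1% and 1.81% had 2 or more of each. The pairing of at least 2 CCAAT boxes with a CHR element, held by Hmgb2, Hmgb3, Mki67 and Top2a, was found in 502 promoters, or 1.53%. In Hmgb2 the motifs lay near both ends of the window, with a CHR element 30 bases and a CCAAT box 11 bases before the start site. A match of letters is a description of the window and does not show that a factor binds there.

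Reads per library ranged from 30591456 to 35719495 with the 11B3 deletion and from 30502718 to 33365364 with p53 loss only. Values are the deposited ones, reads divided by a size factor plus 1, so 3 reads stand at 3.66 to 4.29. Trp53 was at 309 ± 98.8 in the 11B3-deleted and 417 ± 118 in the p53-loss-only libraries (SD, n = 4 each; log2 difference -0.45, SE 0.32), and since a floxed allele can still give RNA outside the removed exons, its level does not check the labels. All 15 myeloid markers had reads, with summed values of 296480 to 964427 against 420823 to 722803. Of these markers, 13 had a lower and 2 a higher mean log2 value in the 11B3-deleted group (median log2 difference -0.34). With each library left out, that median ran from -0.60 without 11B3-deleted replicate 4 to -0.08 without 11B3-deleted replicate 1. No member lies on chromosome 11, and Top2a is on chromosome 11. In bulk RNA, fewer cells of a type and less RNA per cell cannot be told apart.

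**Figure D1:**
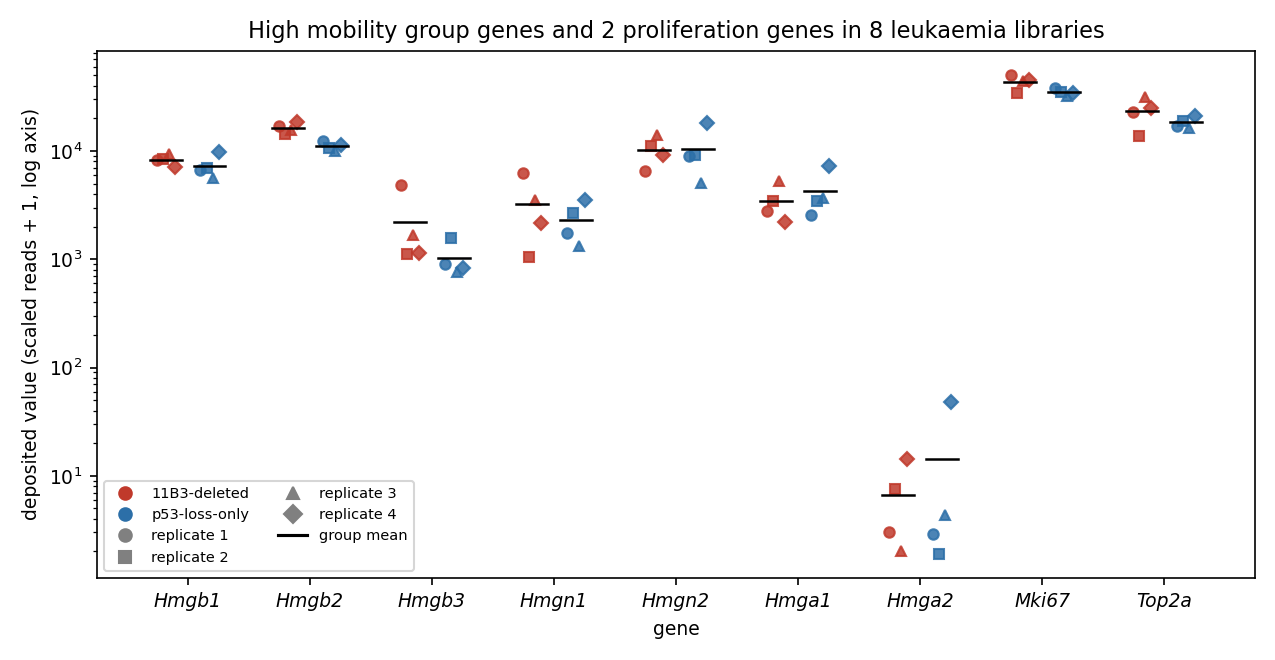
Deposited value (scaled reads plus 1, log axis) of each HMG member, Mki67 and Top2a, with 1 point per library (colour for genotype, shape for replicate) and a bar at the mean of the 4 libraries of a genotype. In Hmgb2 the lowest 11B3-deleted point, 14490, is above the highest p53-loss-only point, 12455, while the points of the other members overlap between genotypes.

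Among the HMGB genes, Hmgb2 stood apart between the genotypes, as it was chosen for, and Hmgb1 and Hmgb3 did not. Hmgb2 measured 17119.6, 14490.0, 15705.1 and 18550.5 across replicates 1 to 4 of the 11B3-deleted group, against 12455.3, 10731.1, 9947.5 and 11307.0 across replicates 1 to 4 of the p53-loss-only group. All 4 11B3-deleted libraries were above all 4 p53-loss-only libraries. The means were 16466 ± 1756 and 11110 ± 1056 (SD, n = 4 each), a ratio of 1.48, and the log2 difference was 0.57 (SE 0.14, 95% interval 0.24 to 0.89). This interval does not allow for the choice of Hmgb2. The spread was narrow, with a coefficient of variation of 10.7% and 9.50%, the smallest in both groups among the 7 members. As a share of all reads Hmgb2 took 0.0440% to 0.0585% of an 11B3-deleted library and 0.0290% to 0.0384% of a p53-loss-only library. The groups were apart on that scale too, which uses the same reads and inherits the choice of Hmgb2.

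Hmgb1, the ubiquitous member, measured 8184.4, 8370.1, 9403.9 and 7054.3 with the 11B3 deletion and 6632.1, 6907.3, 5686.5 and 9805.5 with p53 loss only. The single highest library belonged to the p53-loss-only group, and the groups overlapped (8253 ± 963 against 7258 ± 1777, SD, n = 4 each; log2 difference 0.21, SE 0.19, 95% interval -0.22 to 0.64). That difference was 0.10 without p53-loss-only replicate 3 and 0.36 without p53-loss-only replicate 4. Hmgb3, known as a progenitor gene, was at 4823.0, 1112.6, 1683.7 and 1144.1 against 905.0, 1579.0, 766.4 and 822.0. Its mean was 2191 ± 1774 against 1018 ± 378 (SD, n = 4 each). The log2 difference was 0.88 (SE 0.47, 95% interval -0.17 to 1.93). The highest value was that of 11B3-deleted replicate 1, and without it the log2 difference of Hmgb3 was 0.40. The difference in Hmgb3 was thus larger in size than that of Hmgb2 but spread far more widely over the libraries.

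The HMGN genes showed no separation by genotype. Hmgn1 measured 6213.2, 1041.6, 3526.2 and 2143.5 with the 11B3 deletion and 1744.0, 2693.6, 1319.0 and 3512.0 with p53 loss only. The 11B3-deleted group held both the highest and the lowest value of Hmgn1 (3231 ± 2233 against 2317 ± 982, SD, n = 4 each; log2 difference 0.29, SE 0.53, 95% interval -0.90 to 1.49), and without 11B3-deleted replicate 1 the difference was -0.12. Hmgn2 was at 6513.0, 11135.7, 13987.6 and 9172.8 against 8949.9, 9120.1, 5046.1 and 18162.8. Here the p53-loss-only group held both extremes (10202 ± 3155 against 10320 ± 5557, SD, n = 4 each), and the log2 difference was 0.08 (SE 0.38, 95% interval -0.78 to 0.94). That sign was not stable: the difference of Hmgn2 was -0.22 without p53-loss-only replicate 3 and 0.40 without p53-loss-only replicate 4.

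The HMGA genes differed mostly in how much RNA there was. Hmga1 measured 2771.8, 3438.2, 5300.0 and 2228.7 with the 11B3 deletion and 2562.5, 3425.7, 3689.7 and 7227.4 with p53 loss only. The groups overlapped (3435 ± 1338 against 4226 ± 2058, SD, n = 4 each; log2 difference -0.26, SE 0.36, 95% interval -1.07 to 0.54), and without p53-loss-only replicate 4, the highest library, the difference was 0.03. Hmga2 had 2, 6, 1 and 15 reads against 2, 1, 3 and 44. This gene reached a value of 10 in 2 libraries and did not pass the filter on low values, 5 of its 8 libraries were at or under 3 reads, and no fold is given for it.

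Reads of near copies were few beside most members. The copies of Hmgb1 stood at up to 0.366% of it each, and Hmgn2-ps1 at 0.0905% to 6.29% of Hmgn2. No source used here says how reads shared between copies were counted, and Hmgb1, Hmgn2 and Hmga1 are uncertain to that extent.

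Of the 7 members, 6 passed the filter on low values (10 or more in 4 or more libraries), as did 14679 genes. Over these genes 5 members had a higher and 1 a lower mean log2 value in the 11B3-deleted group. Groups that did not overlap were found in 1 member, Hmgb2, beside 2.15% of all tested genes in either direction and 0.913% with the 11B3-deleted group higher. The limma test with Benjamini-Hochberg adjustment called 0 members beside 0.0136% of all tested genes, and 1 member had an unadjusted limma p under 0.05 beside 3.56% of genes. On the recovered reads edgeR called 0 members beside 0.00681% of genes, with 1 at an unadjusted p under 0.05 beside 4.2%. With DESeq2, 1 member, Hmgb2, was called beside 0.395% of genes, and 2 were at an unadjusted p under 0.05 beside 5.42%. Because Hmgb2 was selected on this contrast, nothing is read from these counts.

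Levels were compared between members per kilobase of exon, taken from GENCODE for GRCm38. Hmgb2 averaged 5246 per kb over the 8 libraries (range 3785 to 7058) and Hmgn2 5148 (2531 to 9113), and these 2 did not differ beyond their spread. Hmgb1 followed at 1925 per kb (1411 to 2433), Hmga1 at 1802 (1048 to 3401), Hmgn1 at 1276 (479 to 2858) and Hmgb3 at 891 (425 to 2679). Each of these overlapped its neighbour in the order, and the highest value of Hmgb1 per kb lay below the lowest of Hmgn2. Hmga2 was last at 2.48 per kb (0.241 to 12.3). On the same per-length scale Mki67 averaged 3912 and Top2a 3991, so the RNA of Hmgb2 was among the more abundant of the set.

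The members also differed in how steady they were from library to library. The ratio of the highest to the lowest of the 8 deposited values was 1.72 in Hmgb1 and 1.86 in Hmgb2, against 3.60 in Hmgn2, 3.24 in Hmga1, 5.96 in Hmgn1 and 6.29 in Hmgb3. Hmgb1 and Hmgb2 were thus the steady pair. In Hmgb1 the spread lay mostly within the genotypes. In Hmgb2 it lay mostly between them, which inherits the choice of Hmgb2.

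Proliferation was then set beside the members. Mki67 measured 50636.2, 34587.9, 43908.0 and 45217.4 with the 11B3 deletion and 38561.1, 35092.1, 32292.4 and 34575.0 with p53 loss only. Replicate 2 of the 11B3-deleted group sat among the p53-loss-only libraries, and the other 3 were above all of them (43587 ± 6669 against 35130 ± 2591, SD, n = 4 each; log2 difference 0.30, SE 0.17, 95% interval -0.09 to 0.69). Top2a was at 22837.8, 13876.6, 31611.9 and 24776.6 against 17122.0, 18951.1, 16409.3 and 21099.8. Replicate 2 of the 11B3-deleted group was again low, the lowest of all 8 libraries for Top2a (23276 ± 7309 against 18396 ± 2097, SD, n = 4 each; log2 difference 0.29, SE 0.25, 95% interval -0.27 to 0.84). Neither marker was called by limma over all genes (adjusted p = 0.996 for both).

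**Figure D2:**
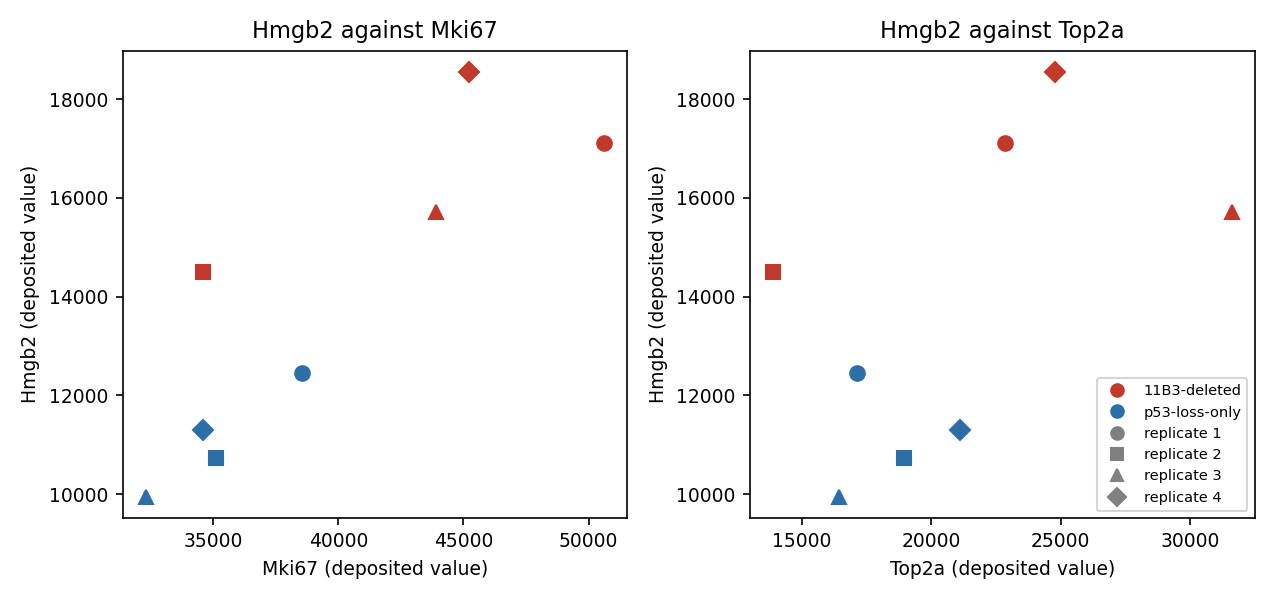
Hmgb2 (vertical axis, deposited value) against Mki67 (left) and Top2a (right, horizontal axes, deposited value), with 1 point per library, coloured by genotype and shaped by replicate. Libraries with more Mki67 tended to have more Hmgb2 (Pearson r = 0.864 on log2 values over 8 libraries), and all 11B3-deleted points lie above all p53-loss-only points for Hmgb2, as it was chosen for.

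Over all 8 libraries Hmgb2 had the highest r to Mki67 of the 7 members, but no relation passed the adjustment. Over 8 libraries on log2 values Pearson's r was 0.864 (two-sided exact permutation test over all pairings of the libraries, p = 0.00997, adjusted p = 0.140 over 14 relations). Spearman's rho was 0.857 (exact permutation p = 0.0107, adjusted p = 0.102). The r of Hmgb2 to Mki67 was higher than that of 99.0% of all tested genes. Part of it is the genotype split by which Hmgb2 was chosen, so each genotype was also centred on its own mean, where r was 0.783 (exact permutation over 576 pairings within genotypes, p = 0.0417, adjusted p = 0.486) and above that of 95.4% of tested genes. Without the 2 libraries farthest from the median of Mki67, 11B3-deleted replicates 1 and 4, r was 0.754 (exact permutation p = 0.103, n = 6). With each library left out in turn, the r of Hmgb2 stayed between 0.821 and 0.952. Without 11B3-deleted replicate 4, Hmgb3 had the higher r to Mki67, 0.871 against 0.850 for Hmgb2. Centred within genotypes, Hmgn1 came close to Hmgb2, with r = 0.760 to Mki67 (exact permutation p = 0.0972), and Hmgb3 was at 0.640 (exact permutation p = 0.104). With 4 libraries, each genotype alone is too small for a correlation.

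The tie of Hmgb2 to Top2a was looser. Pearson's r was 0.523 (exact permutation p = 0.184, adjusted p = 0.516) and Spearman's rho 0.619 (exact permutation p = 0.115, adjusted p = 0.268). Centred within genotypes, r was 0.408 (exact permutation p = 0.434). Without the 2 libraries farthest from the median of Top2a, 11B3-deleted replicates 2 and 3, r was 0.835 (exact permutation p = 0.0528, n = 6). Those libraries are the lowest and the highest in Top2a, at 13876.6 and 31611.9, while their Hmgb2 values were close, at 14490.0 and 15705.1.

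The ratio of Hmgb2 to Mki67 was 0.338, 0.419, 0.358 and 0.410 with the 11B3 deletion and 0.323, 0.306, 0.308 and 0.327 with p53 loss only. The groups did not overlap in this ratio, which inherits the choice of Hmgb2 and is given without a test. The ratio of Hmgb2 to Top2a was 0.750, 1.04, 0.497 and 0.749 against 0.727, 0.566, 0.606 and 0.536, and there the groups overlapped.

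Hmgb3 and Hmgn1 also ran with a proliferation marker before adjustment. Hmgb3 had r = 0.766 to Mki67 (exact permutation p = 0.0279, adjusted p = 0.195) and rho = 0.833 (exact permutation p = 0.0154, adjusted p = 0.102), and its r was 0.616 without the 2 farthest libraries (exact permutation p = 0.197) and 0.510 without 11B3-deleted replicate 1 alone (exact permutation p = 0.223). Its r to Top2a was 0.411 (exact permutation p = 0.330). Hmgn1 had r = 0.720 to Top2a (exact permutation p = 0.0446, adjusted p = 0.208) and rho = 0.810 (exact permutation p = 0.0218, adjusted p = 0.102), and its r was 0.637 without the 2 farthest libraries (exact permutation p = 0.178). To Mki67 its r was 0.666 (exact permutation p = 0.0771), and it lay between 0.404, when 11B3-deleted replicate 1 was left out, and 0.810, when p53-loss-only replicate 4 was. Both genes were highest in 11B3-deleted replicate 1, which was also the highest library in Mki67.

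For Hmgb1, Hmgn2 and Hmga1 no relation to either marker passed an unadjusted p of 0.05. For Hmgb1, r was 0.277 to Mki67 (exact permutation p = 0.503) and 0.451 to Top2a (exact permutation p = 0.259), the latter between 0.215 without 11B3-deleted replicate 3 and 0.712 without 11B3-deleted replicate 2. For Hmgn2, r was -0.07 to Mki67 (exact permutation p = 0.875) and 0.32 to Top2a (exact permutation p = 0.454), the latter between 0.077 without 11B3-deleted replicate 3 and 0.504 without 11B3-deleted replicate 2. For Hmga1, r was -0.38 to Mki67 (exact permutation p = 0.351; -0.59 without 11B3-deleted replicate 3 and -0.25 without 11B3-deleted replicate 4) and 0.21 to Top2a (exact permutation p = 0.610). The correlations of Hmga2 rest on 1 to 44 reads and are not read as a finding.

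**Figure D3:**
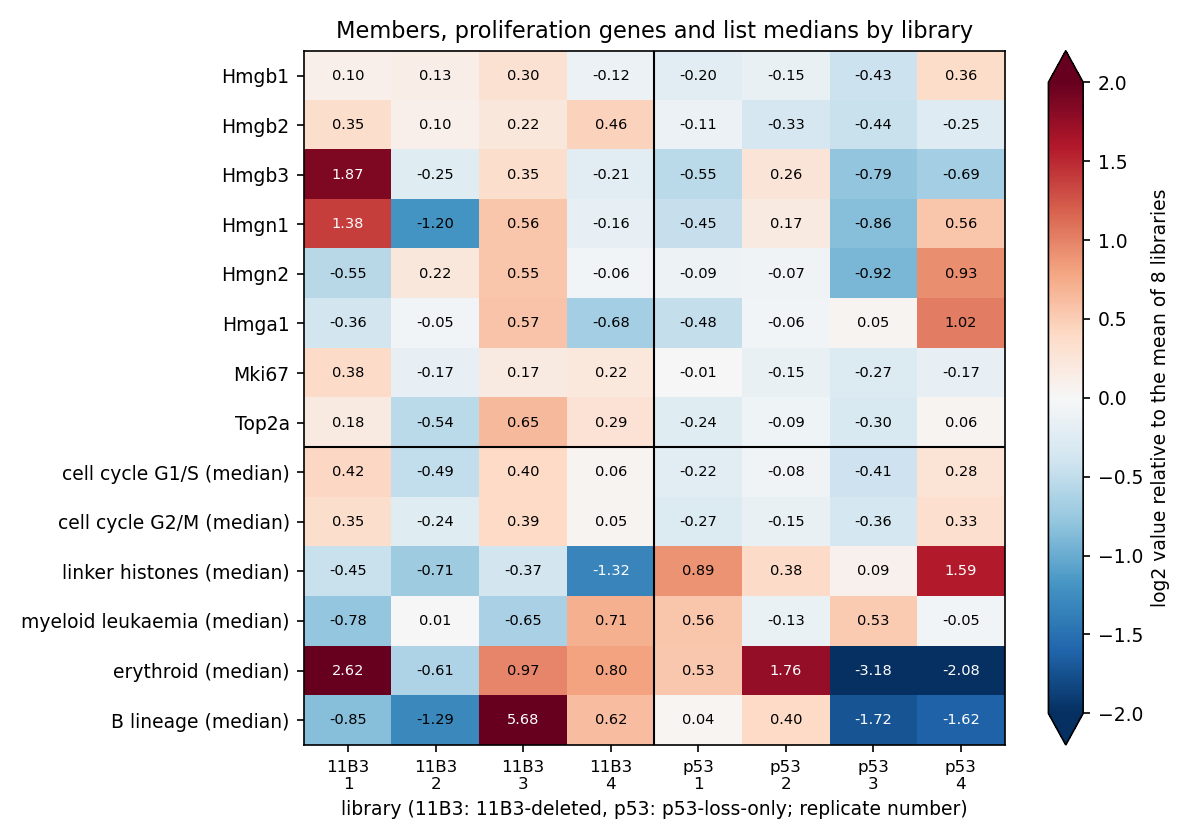
Log2 value of each tested member (Hmga2 is left out) and proliferation gene relative to its mean over 8 libraries, and the same for the medians of gene lists, with libraries in columns (11B3-deleted 1 to 4, then p53-loss-only 1 to 4) and colour as the relative level. Hmgb2 is above its mean in all 4 11B3-deleted columns and below it in the others, as the choice of Hmgb2 fixes. The cell cycle medians are low in 11B3-deleted replicate 2 (-0.49 for G1/S) and high in p53-loss-only replicate 4 (0.28).

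Among themselves the members fell into profiles that did not follow the families. Hmgb1, Hmgn2 and Hmga1 ran together over the 8 libraries, with r = 0.82 between Hmgb1 and Hmgn2, 0.63 between Hmgb1 and Hmga1 and 0.65 between Hmgn2 and Hmga1. All 3 were highest or second in p53-loss-only replicate 4 and 11B3-deleted replicate 3. Hmgb3 and Hmgn1 formed another pair with r = 0.73. Hmgb2 had r = 0.55 to Hmgb3, 0.32 to Hmgn1, 0.37 to Hmgb1, 0.09 to Hmgn2 and -0.40 to Hmga1. Once each genotype was centred, Hmgb2 kept little relation to the other HMGB genes (r = 0.15 to Hmgb3 and -0.03 to Hmgb1), while Hmgb1 and Hmgn2 had r = 0.87. These are descriptions over 8 shared libraries.

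Genes whose profile was most like that of Hmgb2 were ranked by Pearson's r on log2 values over the 8 libraries among all tested genes. The highest included Tfdp1 (r = 0.949), the dimer partner of E2F factors, then Kif20b (0.927), a mitotic kinesin, Phf6 (0.918), Ptger3 (0.910), Nacc1 (0.909), Tbp (0.907), the TATA-binding protein, and Tubgcp3 (0.904), a part of the gamma-tubulin complex. Tfdp1 measured 8538.8, 6719.3, 7963.6 and 9855.3 with the 11B3 deletion and 6571.9, 5709.2, 6026.4 and 5975.1 with p53 loss only. Like Hmgb2 it was highest in 11B3-deleted replicate 4 and lowest of its group in replicate 2. The lowest r belonged to Rpl26 (-0.961), a ribosomal protein gene within the 11B3 segment, then Greb1l (-0.948) and Bpgm (-0.943). Rpl26 was at 7922 ± 996 in the 11B3-deleted and 15971 ± 1061 in the p53-loss-only libraries (SD, n = 4 each; log2 difference -1.02, SE 0.14), so a gene removed with the segment tops the list of opposite profiles. Any gene that separates the genotypes is favoured in such a ranking.

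After each genotype was centred, the ranking held other genes, led by Cdo1 (r = 0.966), Loxl3 (0.943), Frmd8 (0.929), Cacna1h (0.897), Daxx (0.896), As3mt (0.895), Zxdc (0.895) and Rtn3 (0.893). The lowest were Rps6-ps3 (-0.965), Rbm15 (-0.944) and Klhl11 (-0.943). Daxx is a histone chaperone. Of 82 tested cell cycle genes, 4 (4.88%) were among the 100 genes most like Hmgb2, and 1 (1.22%) after centring, beside 0.681% of all tested genes by construction. The median r to Hmgb2 was 0.42 over the cell cycle genes and 0.02 over all tested genes, and 0.31 and 0.03 after centring.

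Cell cycle genes carried higher means in the 11B3-deleted group, and none was called. Of 36 tested G1/S genes, 32 had a higher and 4 a lower mean log2 value, with a median log2 difference of 0.20 beside 0.01 over all tested genes. Of 46 tested G2/M genes, Mki67 and Top2a included, 44 were higher and 2 lower, with a median of 0.29. With limma, edgeR and DESeq2, 0 genes of either list were called over all genes, and 0 of 36 G1/S and 3 of 46 G2/M genes had an unadjusted limma p under 0.05, beside 3.56% of all tested genes. These 3 were Ccnb1, the cyclin of mitotic entry (3237 ± 774 against 2070 ± 233, log2 difference 0.62, SE 0.19), Kif20b (3284 ± 429 against 2380 ± 252, 0.46, SE 0.15) and Cks2, a cofactor of cyclin-dependent kinases (2101 ± 395 against 1370 ± 333, 0.63, SE 0.23; SD, n = 4 each). In 2 of the 46 G2/M genes, Ccnb1 and Kif20b, the groups did not overlap, beside 0.913% of all tested genes with the 11B3-deleted group higher.

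By library the cell cycle lists overlapped between the genotypes. The median of the G1/S genes relative to their mean was 0.42, -0.49, 0.40 and 0.06 in the 11B3-deleted libraries and -0.22, -0.08, -0.41 and 0.28 in the p53-loss-only libraries. That of the G2/M genes was 0.35, -0.24, 0.39 and 0.05 against -0.27, -0.15, -0.36 and 0.33. Replicate 2 of the 11B3-deleted group was low and replicate 4 of the p53-loss-only group high in both lists. Single libraries moved these lists. Without 11B3-deleted replicate 1, 27 of the G1/S genes had a higher mean (median log2 difference 0.11), without replicate 3 of that group 23 did (0.08), and without p53-loss-only replicate 3, 25 did (0.08). The G1/S median was 0.36 without p53-loss-only replicate 4 and 0.34 when 11B3-deleted replicate 2 was left out. For G2/M genes the count stayed between 40 and 45 and the median between 0.18, when 11B3-deleted replicate 3 was left out, and 0.44, when p53-loss-only replicate 4 was.

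Libraries also differed in markers of other cells, and the highest library differed between the lists. All 18 erythroid markers had a higher mean log2 value in the 11B3-deleted group, with summed values of 14574 to 235089 against 3149 to 59444 and the highest sum in 11B3-deleted replicate 1, the library with the most Hmgb3, Hmgn1 and Mki67. Without p53-loss-only replicate 3, 12 erythroid markers had a higher mean. All 12 B lineage markers had a higher mean, with sums of 536 to 55312 against 490 to 2532 and the highest sum in 11B3-deleted replicate 3, without which 9 had a higher and 3 a lower mean. All 10 markers of stroma and endothelium had a higher mean, with sums of 2636 to 14469 against 5162 to 7382. The highest of these sums was in 11B3-deleted replicate 2, the library with the lowest G1/S median (-0.49). In p53-loss-only replicate 4, high in both cell cycle lists, the relative median was -2.08 for erythroid and -1.62 for B lineage markers. The sums of all 3 lists overlapped between the groups. No defining marker of these lists was at 0 in all libraries. Their part in the values of the HMG and cell cycle genes was not tested.

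The sums of the other marker lists overlapped too. They were 401 to 2111 against 913 to 1336 for T and NK cells, 374018 to 1016072 against 489298 to 1308370 for mature granulocytes, and 936 to 4529 against 718 to 2756 for megakaryocytes. Monocyte and macrophage markers, with the macrophage gene Adgre1 entered once, summed to 23314 to 37966 against 20048 to 67871, with 6 higher and 5 lower means of 11. Of these 11, 4 had an unadjusted limma p under 0.05, beside 3.56% of all tested genes. Groups did not overlap in 2, both lower, beside 2.15% of all tested genes in either direction. DESeq2 called 1, with a lower mean, beside 0.395% of genes, while limma and edgeR called 0. Among the 4 were the chemokine receptor gene Cx3cr1 (833 ± 513 against 2946 ± 780, SD, n = 4 each, without overlap) and Cd14 (707 ± 285 against 1400 ± 563). Both had lower means in the 11B3-deleted group, while the median log2 difference of the 11 markers was 0.06. That median ran from -0.51 without p53-loss-only replicate 4 to 0.38 without p53-loss-only replicate 1.

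**Figure D4:**
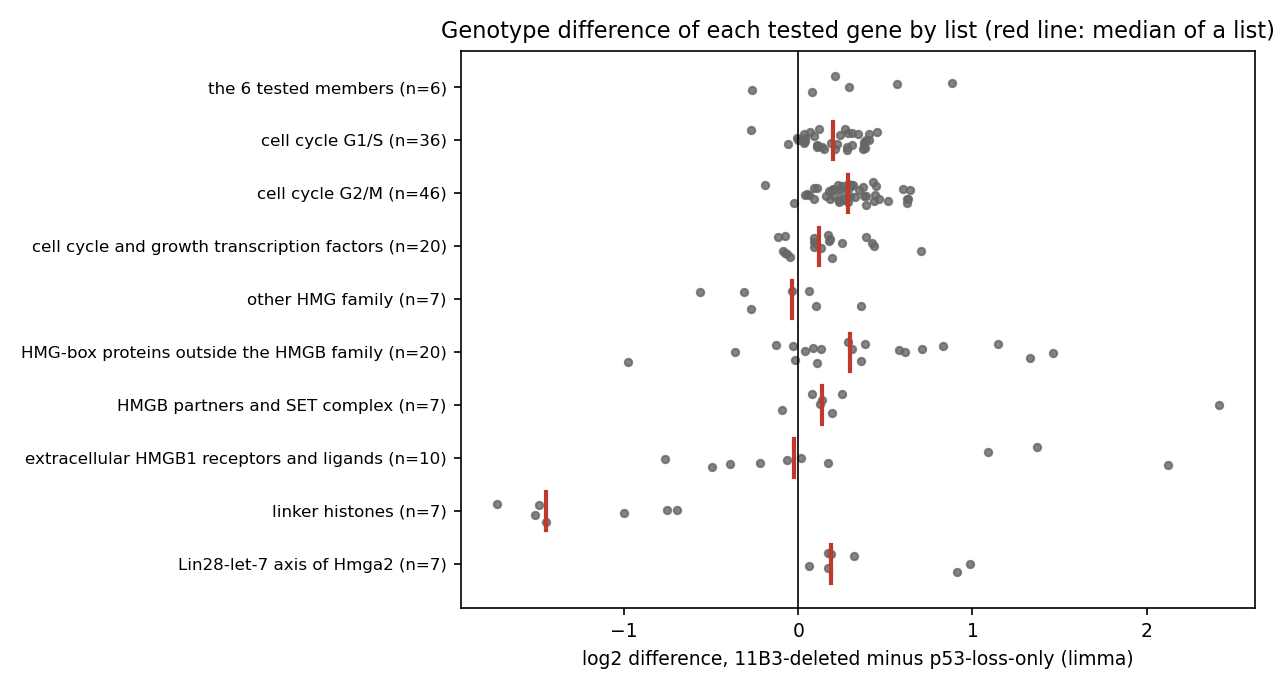
Log2 difference between the genotypes (11B3-deleted minus p53-loss-only, from limma) of each tested gene, with 1 row per gene list, 1 point per gene and a red line at the median of a list. The medians lie at 0.20 for G1/S, 0.29 for G2/M and -1.45 for linker histones, beside 0.01 for all tested genes, and Hmgb2 is at 0.57 in the row of HMG members.

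Genes that work with or beside the HMG proteins were taken from fixed lists, and 0 genes of any of these lists were called over all genes by limma, edgeR or DESeq2. Of the other HMG family, 7 had a row and were tested, 3 with a higher and 4 with a lower mean (median log2 difference -0.04, from -0.12 without 11B3-deleted replicate 1 to 0.10 without p53-loss-only replicate 4, and 0 at an unadjusted limma p under 0.05). Their smallest p-values belonged to Hmgn5 (0.36, SE 0.21), Hmg20b (-0.27, SE 0.17) and Hmgn3 (-0.57, SE 0.47). HMG-box proteins outside the HMGB family counted 15 higher and 5 lower of 20 tested (median 0.30, 0 at an unadjusted p under 0.05). Their median was 0.10 without 11B3-deleted replicate 1 and between 0.15 and 0.28 without each other library. Among them were Ubtf, a factor of ribosomal RNA genes (7933 ± 1255 against 6388 ± 792, 0.31, SE 0.16), Bbx (0.29, SE 0.16) and Sox12 (1.15, SE 0.69).

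The other lists held no call either. Among HMGB partners, the SET complex and the RAG recombinase, which HMGB1 and HMGB2 assist, 6 were higher and 1 lower of 7 (median 0.14, 0 at an unadjusted p under 0.05). Without 11B3-deleted replicate 1 the direction turned, with 3 higher and 4 lower and a median of -0.03. Rag1 was at 5.9, 1.0, 3889.7 and 160.8 against 37.9, 1.9, 1.0 and 62.8, high in 11B3-deleted replicate 3, the library with the highest B lineage sum. Receptors and partners of extracellular HMGB1 split 5 and 5 of 10 (median -0.02, from -0.27 without 11B3-deleted replicate 3 to 0.12 without 11B3-deleted replicate 1, and 1 at an unadjusted limma p under 0.05). That 1 was Tlr2, a receptor of innate immunity, at 1082, 2246, 1143 and 1057 against 2361, 2586, 1678 and 2409 (log2 difference -0.77, SE 0.27), with overlapping groups. Of the axis of Lin28 and let-7 that governs Hmga2, 7 of 7 tested genes had a higher mean (median 0.19, from 0.07 without p53-loss-only replicate 3 to 0.42 without 11B3-deleted replicate 2, and 0 at an unadjusted p under 0.05), Dicer1 with the smallest p (4633 ± 306 against 4085 ± 500, 0.19, SE 0.14), Lin28a at 0.98 (SE 0.93) and Xpo5 at 0.32 (SE 0.33). Cell cycle and growth factors counted 14 higher and 6 lower of 20 (median 0.12, from 0.07 without 11B3-deleted replicate 3 to 0.21 without p53-loss-only replicate 4, and 1 at an unadjusted p under 0.05), with Tfdp1 at 8269 ± 1302 against 6071 ± 362 (0.43, SE 0.15), E2f4 at 0.42 (SE 0.23) and Mybl2 at 0.70 (SE 0.39).

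Linker histones, which compete with HMGB and HMGN proteins for nucleosomes, had lower values in the 11B3-deleted group. All 7 tested genes had a lower mean, with a median log2 difference of -1.45, 5 at an unadjusted limma p under 0.05 (3.56% of all tested genes) and 0 called by limma, edgeR or DESeq2. H1f0, the replacement linker histone, measured 691, 829, 575 and 1017 with the 11B3 deletion and 1198, 1404, 1320 and 2427 with p53 loss only, without overlap (778 ± 190 against 1587 ± 566, SD, n = 4 each). Hist1h1e was at 33.2, 38.7, 42.7 and 17.0 against 104.9, 59.7, 60.2 and 297.0, also without overlap (-1.73, SE 0.58). Hist1h1d had a difference of -1.51 (SE 0.64). Groups did not overlap in 2 of the 7 genes, H1f0 and Hist1h1e, beside 2.15% of all tested genes in either direction. The library medians of the list were -0.45, -0.71, -0.37 and -1.32 against 0.89, 0.38, 0.09 and 1.59. They were thus lowest in 11B3-deleted replicate 4, where Hmgb2 was highest, but the highest median, in p53-loss-only replicate 4, did not meet the lowest Hmgb2. Without p53-loss-only replicate 4 the median difference was -0.92 and all 7 genes still had a lower mean. Histone transcripts of the Hist1 cluster mostly lack a poly(A) tail, and the labels name total RNA without saying how the libraries selected it.

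Promoters like that of Hmgb2 were followed through the tested genes. With members, Mki67 and Top2a left out, 155 tested genes had at least 2 CCAAT boxes and a CHR element in the window. Their median log2 difference was 0.09 and 61.9% had a higher mean in the 11B3-deleted group, beside 0.02 and 52.7% over 9667 tested genes with a promoter in the table. Their median r was 0.13 to Hmgb2, 0.23 to Mki67 and 0.20 to Top2a, beside 0.04, 0.03 and 0.01. These are descriptions of genes that share letters with the Hmgb2 promoter and were given no test.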

How the data were processed

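Total RNA of 8 leukaemia libraries was sequenced, and groups came from the sample titles. STAR, HTSeq and DESeq, and mm9 as the build, are named in the submitters' processing notes, with neither role nor version. The authors deposited 1 table per library with a normalized signal for 18860 genes. Every deposited signal value equals a whole read number divided by a library's size factor, plus 1, as the values show (100% whole within a tolerance of 0.02), and edgeR on the recovered reads called 1 gene. No source used here says whether counting used strand or how multi-copy reads were handled.

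As planned for values that are not counts, limma with a mean-variance trend was run on the log2 of the deposited signal, the deposited 1 serving as pseudocount, so that folds of genes with few reads come out too small. The 14679 genes reaching 10 in 4 or more libraries entered a two-sided test of genotype alone, adjusted by Benjamini-Hochberg at 0.05. Relations across libraries used exact permutation tests. Members and lists were chosen with earlier results of these data known. Named genes are the members, Mki67 and Top2a, up to 3 genes per list with the smallest p, and the genes most like or opposite to Hmgb2, predicted genes left out. Some genes that this rule takes are left out. Hmgb4, Hmgn4, Trex1 and Igf2bp1 matched no row.

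Genes were matched by their deposited symbol, and listed genes without such a match by a current symbol (given to 17888 of 18860 identifiers). Current symbols and exon lengths came from GENCODE for GRCm38, which is another build than mm9. Promoters came from RefSeq for GRCm38.p6, in which 9 of 9 genes sought were found. Motif searches covered 250 bases upstream. All pairs of libraries differed by more than sampling noise, the smallest chi-square per degree of freedom being 86.8. Replicate numbers did not pair the libraries. Alternatives were TMM and CPM scaling, other filters, a constant of 5, edgeR, DESeq2, the replicate block, each library left out and, chosen after seeing the data, list counts without 3 libraries. Procedures were tested on simulated data. Software was Python 3.11.15 with scipy 1.17.1 and pandas 2.3.3, and R 4.3.3 with DESeq2 1.42.0, limma 3.58.1 and edgeR 4.0.16.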

Additional observations from a re-analysis of the deposited data

Results flagged for a closer look

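In 3 of 18 groups of 4 libraries, for the members, Mki67 and Top2a, 1 library stood far from the other 3 on the deposited values. Hmgb3 in 11B3-deleted replicate 1 was at 4823.0, where the other libraries of the group were at 1112.6 to 1683.7. Hmgb3 in p53-loss-only replicate 2 was at 1579.0, where the others were at 766.4 to 905.0. Hmga2 in p53-loss-only replicate 4 was at 47.9, or 44 reads, where the others had 1 to 3 reads. On the log2 scale 0 of the 18 groups stood out in this way. Chance flags about 1 group in 20.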

How the results depend on the processing

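The number of genes called between genotypes, 2 with limma, was 1 with a filter of at least 50, with a constant of 5 and with edgeR, 58 with DESeq2 (8 higher, 50 lower) and 0 to 1 with each library left out. With the replicate number as a block 0 genes were called, and 375 had an unadjusted p under 0.05; same-numbered libraries had deviations that correlated at -0.03, -0.22, -0.41 and -0.24, so the numbers were not taken to pair them. The log2 difference of Hmgb2 was 0.56 with TMM, 0.59 with CPM scaling, 0.56 with edgeR and 0.57 with DESeq2, and 0.51 to 0.63 with each library left out, its sign being fixed by how Hmgb2 was chosen. That of Hmgn2 was -0.02 with edgeR and -0.01 with DESeq2. Of 196 alternative values of Pearson's r for the 14 relations, 0 passed the adjusted threshold and 181 kept their sign. Spearman's rho passed it when some single libraries were left out. Without p53-loss-only replicate 2, Hmgb2 and Hmgb3 each had rho = 0.929 to Mki67 (exact permutation, adjusted p = 0.0472). Without 11B3-deleted replicate 4, Hmgn1 had rho = 0.964 to Top2a (exact permutation, adjusted p = 0.0389). The sign of Pearson's r turned for Hmgb1 with Mki67 after centring each genotype (-0.017). It turned for Hmgn2 with Mki67 under CPM scaling (0.12) and without the 2 farthest libraries (0.44). Without the 2 farthest libraries it also turned for Hmga1 with Mki67 (0.10), Hmga1 with Top2a (-0.15) and Hmga2 with Top2a (0.44), and for the last also with a constant of 5 (0.00075) and without the log (0.017). With each library left out, r ranged from -0.036 to 0.55 for Hmgb1 with Mki67, -0.54 to 0.27 for Hmgn2 with Mki67, -0.41 to 0.027 for Hmga2 with Mki67, -0.12 to 0.44 for Hmga1 with Top2a and -0.20 to 0.28 for Hmga2 with Top2a. The causes were not tested. With 4 libraries per genotype the precision is set by the spread between libraries, and for Hmga2 by its 1 to 44 reads.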

Other observations

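Core histone genes, taken as the rows named for H2A, H2B, H3 and H4 in the Hist1, Hist2 and Hist3 clusters and chosen after their values were seen, were examined beside the linker histones. Of 36 tested, 33 had a lower and 3 a higher mean log2 value in the 11B3-deleted group, with a median log2 difference of -1.13. Groups did not overlap in 6 of them, all lower, beside 2.15% of all tested genes in either direction. Limma called 0 of the 36, beside 0.0136% of all tested genes. The median over these rows was 20.9 for the 11B3-deleted mean and 51.7 for the p53-loss-only mean. By library, the median relative to the mean was -0.17, -0.70, -0.08 and -1.20 in the 11B3-deleted group and 0.50, 0.14, -0.33 and 1.89 in the p53-loss-only group, lowest in 11B3-deleted replicate 4 and highest in p53-loss-only replicate 4.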
